A study of Rattus norvegicus with 12 samples.

Results

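The subject here is network activity in cultured rat hippocampal neurons with transcription left intact. It comprises 6 of the 12 arrays in the series, those hybridised without actinomycin D, and compares cultures made active (BiC/4AP) with cultures kept silent (Block) at 5, 30 and 60 min, matched by time. Each array carries 9600 spots of human complementary DNA clones on a nylon membrane. The clones described are the 7300 spots, of 5545 genes, that have a single gene symbol and a mean log2 intensity above 5 over the 12 arrays. Another 1196 named spots fell below this level. MRPS6, BIN3 and SMU1 lay just inside it (5.00 each), and NKIRAS1, SRP54 and MIEF1 just outside (5.00 each after rounding).

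The cultures were prepared from Sprague Dawley rat embryos at day 18.5 and grown for 12 days above a layer of glial cells. Every culture began with 3 h of silence, imposed by glutamate receptor antagonists (D-APV at 50 µM for NMDA receptors, CNQX at 40 µM for AMPA and kainate receptors) and by the sodium channel blocker TTX at 100 nM. Block cultures stayed in these drugs, whereas BiC/4AP cultures were washed and given bicuculline (50 µM), which blocks inhibition through GABA-A receptors, and 4-aminopyridine (500 µM), which blocks potassium channels. The 6 arrays used only as a comparison had the same 6 conditions with 25 µM actinomycin D (ActD), which stops RNA synthesis.

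Each condition has 1 array of RNA pooled from 3 coverslips, so no condition has a replicate and the 3 times stand in for replicates. The p-values below thus rest on how single arrays of unlike conditions scatter, which may be technical. A level here is the normalised log2 intensity of a clone, the z-score of its log2 intensity within an array put back on a log2 scale, and a difference is the level with BiC/4AP minus that with Block of the same time. Median raw intensity ran from 52.6 to 137 over the 6 arrays, and between 78 and 161 spots per array sat at an intensity of exactly 10. Only 7 of the 7300 clones did so on any of the 6 arrays. Of the marker genes annotated on the array, those with a clone above the level of 5 were 16 of 18 for neurons, 12 of 14 for astrocytes, 7 of 8 for oligodendrocytes, 8 of 8 for microglia and macrophages and 7 of 9 for vascular cells and fibroblasts. Over all genes annotated on the array, 5545 of 6284 had such a clone. Signal above this level, from human clones on rat RNA, thus did not separate the labelled neurons from other cell types.

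When a silenced network starts to fire, calcium enters through NMDA receptors and voltage-gated channels and activates kinases that phosphorylate transcription factors already bound at their sites. CREB acts through the cyclic AMP response element (CRE), and the serum response factor with its partners acts through the CArG box. Within minutes they switch on immediate early genes such as FOS, ARC and NR4A1, whose products then control a slower wave of genes for synapses, growth factors and signalling. Messenger RNA stability changes as well, and it can alter levels without any new transcription.

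Active and silent arrays of the same time were very alike. Pearson's r of the levels across the 7300 clones, which share membrane and hybridisation, was 0.983 at 5 min, 0.981 at 30 min and 0.982 at 60 min. The SD of the difference over these clones was 0.30 log2 at 5 min and 0.36 at both later times, against 0.58, 0.57 and 0.52 over all 9600 spots. The z-fold of the study's own method was taken as the difference divided by that SD over all spots, and its threshold of 1.4 then equals a difference of 0.81, 0.79 and 0.73 log2, or 1.75-, 1.73- and 1.66-fold.

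At 5 min, 10 clones were past the threshold as higher with activity and 35 as lower, while over all spots the percentages were 2.3 and 2.3. That split depended on the scaling, with 52 higher and 118 lower after quantile normalisation, 464 and 604 when a background constant was added before the log, and 15 and 11 when the local level of neighbouring spots was subtracted. At 30 min the counts were 94 higher and 143 lower, against backgrounds of 3.67% and 4.24% of all spots. At 60 min they were 160 and 143, against 3.49% and 4.2%. In each pair the members' share lay below that of all spots.

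Agreement between the times was limited. Of the 7300 clones, 897 (12.3%) were higher with activity in 3 of 3 pairs and 520 (7.12%) were lower in 3 of 3, beside 12.1% and 8.15% of all spots. The most common order of signs was lower at 5 min, lower at 30 min and higher at 60 min, in 1329 clones. The threshold was passed in at least 1 pair by 521 clones (7.14%), beside 14.9% of all spots, and in the same direction in at least 2 pairs by 10 (0.137%), beside 2.42%. The correlation of differences over the 7300 clones was 0.04 between 5 and 30 min, -0.11 between 5 and 60 min and -0.29 between 30 and 60 min. In limma's fit to all 12 arrays, which treats a response that differs between times as spread, the activity effect without ActD was past an adjusted p of 0.05 at 0 of 9600 spots (0.0%). At an unadjusted p under 0.05 there were 300 spots (3.12%), of which 87 named clones (1.19% of the 7300) were higher and 67 (0.918%) lower. The median 95% interval of an effect, not adjusted for the number of spots, was ± 0.39 log2. Changes much smaller than this could not be detected, and no larger effect passed the adjusted p either.

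The differences also followed the order in which the spots are numbered. At 5 min the change repeated every 600 spots. Over the 16 such blocks, clones in the first 100 positions had a median difference of 0.27 log2 and those in the fifth 100 one of -0.25. At 60 min the median climbed along the whole numbering, from -0.24 in the first block of 600 to 0.26 in the last. At 30 min it ran the other way at the start, from 0.18 in the first block to -0.08 in the eleventh. Clones higher in 3 of 3 pairs made up 17.9% of the third 100 positions of a block and 6.6% of the last. These shifts are as large as most gene group medians below, and their part in each result was not tested beyond the local correction, under which 917 clones were higher in 3 of 3 pairs and 666 lower.

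**Figure D1:**
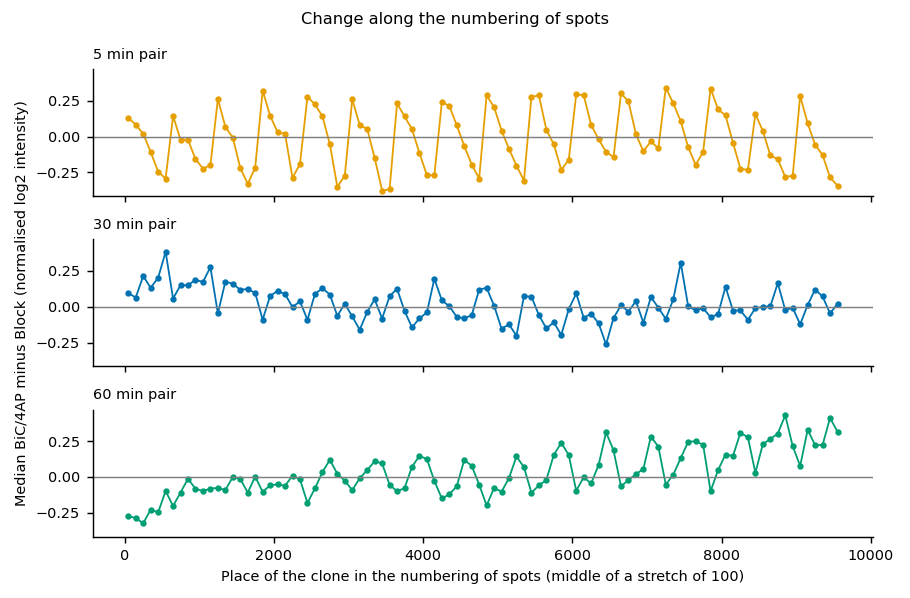
Median difference between BiC/4AP and Block arrays without actinomycin D (y axis, normalised log2 intensity) in successive stretches of 100 spot numbers (x axis), for the named clones above the level of 5 and the 5, 30 and 60 min pairs from top to bottom. The 5 min line repeats every 600 spots and the 60 min line climbs from below 0 to above 0. Each point is the median of 61 to 86 clones.

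The clones that changed most steadily were few and their changes small. The 12 higher and 12 lower clones shown were chosen by the p of the activity effect among those with 1 direction in 3 of 3 pairs, so their agreement across times comes from that choice. Mean levels ran from 5.24 to 12.08 for the higher clones and from 5.02 to 7.12 for the lower ones. Among all named clones the brightest 1460 had medians of 0.18 and 0.14 log2 at 5 and 30 min, the dimmest 1460 of -0.09 and 0.03. The part of this trend in the 24 effects was not tested. Effects of the 24 ran from 0.38 to 0.77 log2 upwards and from 0.35 to 1.26 log2 downwards, and the unadjusted p from 0.0039 to 0.018. None passed limma's adjusted p, which was 1.00 for all 24.

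PFKM, the muscle form of the phosphofructokinase that commits glucose to glycolysis, had levels of 5.72, 4.85 and 5.14 in the Block arrays at 5, 30 and 60 min and of 6.01, 5.36 and 5.68 in the BiC/4AP arrays. Each active array was above its partner, but the 2 sets overlapped because both states were brightest at 5 min. The effect was 0.45 log2 (SE 0.12), or 1.37-fold. A second PFKM clone differed by -0.20, 0.29 and -0.28 log2 and did not share it. PCK2, the mitochondrial enzyme that makes phosphoenolpyruvate from oxaloacetate, stood at 6.05, 5.74 and 5.86 in Block and at 6.51, 6.25 and 6.13 with activity. Here the lowest active array was above the highest Block array, and the effect was 0.41 log2 (SE 0.12).

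MRPL28, a protein of the mitochondrial ribosome, had the largest effect of the higher group, 0.77 log2 (SE 0.25). Its levels were 6.86, 5.25 and 4.47 in Block and 7.23, 5.94 and 5.71 with activity, so the gap widened as the Block level fell. Another MRPL28 clone, at levels between 7.29 and 7.95, differed by 0.06, -0.10 and -0.17 log2. NUDT4, a phosphatase of inositol pyrophosphates, was at 9.08, 9.66 and 10.01 in Block and at 9.49, 10.18 and 10.41 with activity, an effect of 0.44 log2 (SE 0.12). PITPNB, which moves phosphatidylinositol between membranes, was higher by 0.50, 0.31 and 0.35 log2 at a mean level of 12.08. Its effect of 0.38 log2 was 0.21 after quantile normalisation. NOL6, a nucleolar protein of ribosome assembly, was higher by 0.45, 0.46 and 0.27 log2 at a mean level of 11.36. In NUDT4, PITPNB and NOL6 the levels of both states were higher at 30 than at 5 min.

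The other higher clones were TSPAN4, a tetraspanin (0.52 log2), SERPINA5, an inhibitor of serine proteases (0.46), BNIP1, a SNARE protein of the endoplasmic reticulum (0.46), DEPP1 (0.46), HOPX, a homeodomain protein without its own DNA binding (0.40, with a 60 min difference that went from 0.42 to -0.01 once the local level was subtracted), and RSU1, an adhesion protein first described as a suppressor of Ras (0.38).

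Of the 12 lower clones, PCLAF, which binds the replication clamp PCNA, was at 5.54, 5.43 and 5.06 in Block and at 4.83, 4.97 and 4.71 with activity. The 2 sets did not overlap, and the effect was -0.51 log2 (SE 0.13). A pair of further PCLAF clones had effects of 0.03 and -0.22 log2, neither in 1 direction at all times. AEN, a nuclease induced by p53 in human cells, was at 5.89, 5.46 and 5.83 in Block and at 5.37, 4.96 and 5.24 with activity, again without overlap. Its effect was -0.54 log2 (SE 0.14), whereas its 2 other clones had effects of 0.20 and -0.10 log2. ZWINT, a kinetochore protein, was lower by 0.56, 0.54 and 0.32 log2. CPSF3, the endonuclease that cuts pre-mRNA before polyadenylation, was lower by 0.27, 0.55 and 0.83 log2.

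TMEM176B, a membrane protein of immune cells, had the largest effect of these 24 clones in either direction. It was at 8.12, 5.64 and 4.71 in Block and at 7.94, 3.51 and 3.25 with activity. The 5 min arrays were nearly equal, and the later ones differed by -2.13 log2 at 30 min and -1.46 at 60 min. The raw intensity with activity was exactly 10 at 30 min, a value many spots of an array share, and 8.41 at 60 min. The effect of -1.26 log2 (SE 0.34) corresponds to a 2.39-fold lower level. It was -0.82 without the 30 min pair and -0.68 with a background constant added before the log. FBXL20, an F-box protein that in the mouse marks the presynaptic protein RIM1 for degradation, was at 5.43, 5.95 and 5.51 in Block and at 5.17, 5.10 and 4.82 with activity, without overlap. TPGS2, a subunit of the enzyme that adds glutamate chains to tubulin, was at 4.98, 5.31 and 5.30 in Block and at 4.30, 4.80 and 4.85 with activity, also without overlap. These effects were -0.59 log2 (SE 0.15) and -0.55 log2 (SE 0.14). BUD23, a methyltransferase of ribosomal RNA, had an effect of -0.57 log2 at a mean level of 5.56, and the smallest p of the 24. A second, brighter BUD23 clone (7.64) differed by 0.15, -0.27 and 0.19 log2, an effect of 0.02. The other lower clones were CYP1B1, a cytochrome P450 (-0.50), ATP6V1D, a subunit of the proton pump of vesicles (-0.43), VCP, an ATPase that extracts ubiquitinated proteins (-0.40), and ZMYM3, a zinc finger protein of chromatin (-0.35).

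**Figure D2:**
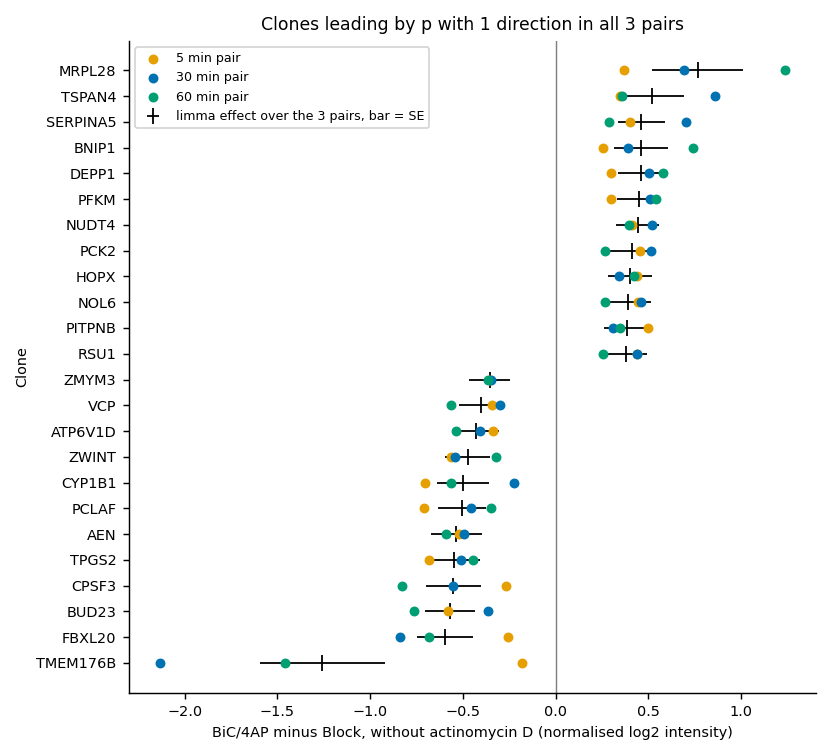
Difference between BiC/4AP and Block arrays without actinomycin D (x axis, normalised log2 intensity) for the 24 clones (y axis, by gene symbol) that led by p among those with 1 direction in 3 of 3 pairs. Coloured points are the single pairs of arrays, the upright tick is limma's effect and the horizontal bar its SE. TMEM176B stands apart at -1.26, with points from -0.18 to -2.13.

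Other clones of the same genes gave no second reading of these changes. For 7 of the 24 genes the array holds 11 further clones above the level of 5. Of these, 5 had an effect of the same sign and 0 had that sign in 3 of 3 pairs. Over the 1215 genes with at least 2 clones, the differences of the first and second clone had a Pearson's r of 0.07 at 5 min, 0.09 at 30 min and 0.04 at 60 min, and shared a sign in 50.4%, 52.9% and 52.8% of genes. The mean levels of the same clone pairs had an r of 0.58.

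Most clones of GAPDH, FTL, the tubulins and the metallothioneins nevertheless shared a course over time. These 5 families were picked out after the values were seen, and every clone of each family above the level of 5 is counted, so what follows is a description without a test. GAPDH, the glycolytic dehydrogenase, has 4 clones, which were lower with activity at 5 min (by 0.21 to 0.59 log2), lower at 30 min (by 0.41 to 0.94) and higher at 60 min (from 0.75 to 1.05). Its first clone was at 7.62, 7.38 and 6.49 in Block and at 7.04, 6.43 and 7.50 with activity. The Block level fell between 30 and 60 min while the active level rose, so that the order of the 2 states turned over.

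FTL, the light chain of the iron store ferritin, followed the same course. Of its 8 clones, 7 were lower at 5 min, 7 were lower at 30 min and 6 were higher at 60 min, with medians of -0.54, -0.56 and 0.76 log2. The brightest clone was the exception at 5 and 30 min, with differences of 0.42, 0.18 and -0.30 log2. Among 17 clones of beta-tubulins (TUBB, TUBB2A, TUBB3, TUBB4A, TUBB4B and TUBB6), which form microtubules with alpha-tubulin, 15 were lower at 5 min, 15 were lower at 30 min and 16 were higher at 60 min. Their medians were -0.35, -0.66 and 0.56 log2. The 22 alpha-tubulin clones had medians of -0.23, -0.81 and 0.11 log2, with 15 of 22 lower at 30 min and 15 higher at 60 min. Taking only the brightest clone of each alpha-tubulin gene turned the 30 min median to 0.15 log2, and the brightest TUBA1B clone differed by 0.53, 0.18 and -0.30 log2. Bright clones of other housekeeping genes took other courses. The brightest ACTB clone, for beta-actin, differed by 0.83, -0.09 and -0.47 log2 and that of ALDOA, a glycolytic aldolase, by 0.28 (-0.08 after quantile normalisation), 0.19 and -0.10. Quantile normalisation, median centring, an added background constant and subtraction of the local level each left the signs of the GAPDH, FTL and tubulin medians as they were at all 3 times, and likewise those of the metallothioneins below.

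Metallothioneins, small proteins that bind zinc and copper and are abundant in astrocytes, did likewise. MT1X was at 8.70, 8.80 and 7.74 in Block and at 8.22, 7.71 and 8.98 with activity, and MT1H differed by -0.43, -1.18 and 1.26 log2. All 6 clones were lower at 5 min, with a median of -0.48 log2, though MT1E was not once the local level was subtracted (0.06). MT1E, at a level near 5.9, was the 1 clone that was higher at 30 min (0.30), and MT2A the 1 that was not higher at 60 min (-0.04). Clones of tubulins and of metallothioneins resemble their paralogues closely, so single members of these families cannot be told apart on this array.

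With ActD the same families moved differently at the later times, in arrays that share no sample with those above. GAPDH clones had medians of -0.59 log2 at 5 min, 0.60 at 30 min and -0.13 at 60 min with ActD, against -0.29, -0.55 and 0.98 without it. For beta-tubulins the medians were -1.03, 0.85 and -0.26 with ActD. For FTL they were -0.76, 0.76 and -0.53. Activity thus went with lower levels at 5 min in both series of arrays, and with opposite directions at 30 min. Over all 7300 clones the correlation between the differences without and with ActD was 0.31 at 5 min, -0.04 at 30 min and -0.38 at 60 min.

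**Figure D3:**
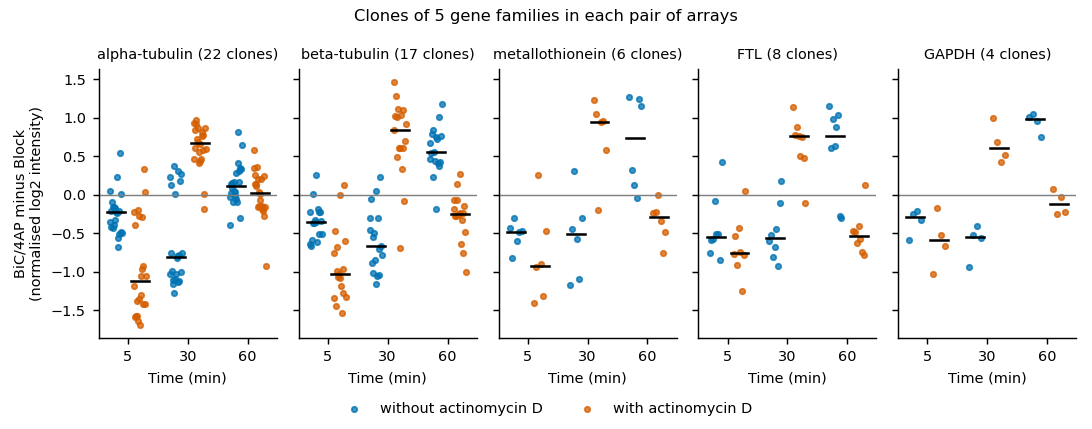
Difference between BiC/4AP and Block (y axis, normalised log2 intensity) at 5, 30 and 60 min (x axis) for every clone above the level of 5 of 5 gene families, without (blue) and with (orange) actinomycin D. Each point is 1 clone on 1 pair of arrays, so points of a column are not replicates, and black lines are medians. Without actinomycin D the GAPDH medians run -0.29, -0.55 and 0.98, and with it -0.59, 0.60 and -0.13.

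The same course marked the clones past the threshold in opposite directions. Of the 53 clones that were past it at both 30 and 60 min with different signs, 48 were lower at 30 min and higher at 60 min, and 5 (NPC2, VKORC1, CKAP2, SULF2 and APOA1) the reverse. The 48 include TUBB4B (2 clones), TUBB and TUBB6, FTL (2 clones), MT1H, MT1X and GAPDH. They also include the ribosomal proteins RPL3 (2 clones), RPL4, RPL7 and RPL37A, the polyubiquitin gene UBB and STMN3, a neuronal protein that destabilises microtubules. STMN3 went from a difference of -1.23 log2 at 30 min to 1.54 at 60 min. Their median level was 7.69 in Block and 6.60 with activity at 30 min, and 6.72 and 7.70 at 60 min. With ActD the median difference of these 48 was 0.79 log2 at 30 min and -0.61 at 60 min.

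A further 12 of the 48 lay at every 25th spot number between 5128 and 5878, among them CREM, CCNK, H2AZ2, RAB35, MMUT and SLBP. The 30 named clones at such positions from 5101 to 5900 had median differences of -0.43, -0.64 and 0.57 log2, against -0.03, -0.08 and 0.03 for the 586 other clones of that stretch. A second such line ran from 9370 to 9495. Its 6 named clones (UBB, ZNF317, STMN3, SMARCD1, DGCR8 and ACSS3), 5 of them among the 48, had medians of -0.34, -0.99 and 1.07 log2, against -0.28, -0.01 and 0.36 for the 84 other clones between them. In all, 25 of the 48 had another of the 48 at most 100 numbers away in steps of 25. The other 23, which include the tubulin, FTL, MT1H, MT1X and GAPDH clones, had medians of -0.43, -1.04 and 1.01 log2. Genes of unrelated function thus shared 1 course along lines of spots, and the part of spot position in it was not tested.

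The largest single differences of each time belonged mostly to 1 array. At 60 min, MCM10, a factor that loads the replication machinery, stood at 5.52 in Block and 1.08 with activity, a difference of -4.44 log2, after 0.25 and 0.14 at the earlier times. ZBED10P was higher by 3.92 log2 at 60 min, 0.02 at 30 min and -0.34 at 5 min. DHRS4, BIN3, POP4 and NIPSNAP1 also led at 60 min. They were low on the Block array (1.71, 1.74, 2.67 and 3.86), with NIPSNAP1 at a raw intensity of exactly 10. With activity they were between 4.48 and 6.47. In each of these the other 2 pairs differed by less than 1 log2.

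At 30 min, PRSS23, a serine protease, was at 5.60 in Block and at 8.34 with activity, while its other 4 arrays lay between 5.52 and 6.22. TMEM107, a protein of the ciliary transition zone, EXTL3, an enzyme of heparan sulphate synthesis, and NAT9 were instead low on the Block array alone, at 2.94, 4.03 and 3.29. APOC2, an activator of lipoprotein lipase, fell from 5.65 to 2.41. RAB35, a small GTPase of endosome recycling, was lower by 1.93 log2 at 30 min and higher by 0.94 at 60 min. TAGAP and PSMD6, a subunit of the proteasome, differed by -1.79 and -1.72 log2, and by -0.08 and -0.72 at 60 min.

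At 5 min the differences were smaller. ASH1L-AS1 and MRPL40, a protein of the mitochondrial ribosome, were higher by 2.47 and 2.39 log2 and by 0.03 log2 each at 30 min. The lower leaders shared a course over time. SCGB1A1, the secretoglobin of airway cells, was at 9.62, 8.17 and 10.65 in Block and at 8.48, 8.94 and 9.69 with activity. It was thus lower at 5 and 60 min and higher at 30 min, and TOMM34, HLA-DPB1, PKD1L2 and SLC25A12 had the same order of signs. All of these lower leaders also lay in the fifth or sixth 100 positions of a block of 600 spots. Over all named clones there, the medians were -0.25 and -0.23 log2 at 5 min and -0.01 and 0.07 at 30 min. At 60 min they were 0.15 and 0.07, opposite in sign to these leaders. The part of spot position in the shared course was not tested.

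Immediate early genes are the usual first responders to activity. The lists hold 34 genes annotated on the array, of which 28, with 37 clones, were above the level of 5. Of the 37, 9 (24.3%) were higher with activity at both 30 and 60 min, beside 24.1% of all 7300 clones. At either of these times 6 clones (16.2%) were higher by over 0.5 log2 and 4 (10.8%) were lower by as much, beside 12.5% and 14.0% of all clones, and 0 had an unadjusted p under 0.05 in limma's fit. The transcription factors had medians of -0.12, 0.05 and -0.07 log2 over the 3 times and the effectors medians of -0.04, 0.06 and 0.10, beside -0.01, 0.03 and 0.02 for all 7300 clones.

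FOS, the AP-1 subunit most used as a marker of firing, was at 6.31, 6.44 and 6.71 in Block and at 5.85, 6.38 and 6.57 with activity. All 3 active arrays were slightly lower, with an effect of -0.22 log2 (SE 0.19). ARC, which controls AMPA receptor removal at synapses, was at 5.82, 5.81 and 4.87 in Block and at 5.81, 5.18 and 4.67 with activity, an effect of -0.28 log2 (SE 0.15). NR4A1, an orphan nuclear receptor, differed by 0.13, 0.11 and 0.04 log2. Each of these is smaller than the median interval of ± 0.39 log2.

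ATF3, a stress-inducible factor of the AP-1 family, was higher by 0.69 and 0.61 log2 at 5 and 30 min and lower by 0.16 at 60 min. Of 2 JUN clones, 1 was higher by 1.07 log2 at 60 min and the other differed by -0.16. Of 3 JUNB clones, 1 was higher by 0.66 at 30 min and lower by 0.90 at 60 min, while the others stayed within 0.30 log2 of 0 at these times. Several clones of a gene thus gave different answers.

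Among effectors, PTGS2, the inducible cyclooxygenase, was higher by 0.60 log2 at 30 min and differed by -0.21 at 60 min, or by 0.01 with the local level subtracted. PLK3, a stress-responsive kinase, was at 6.13 and 6.22 in Block and at 6.44 and 6.81 with activity at 30 and 60 min. HOMER1, a scaffold whose short form is induced by activity, was higher by 0.31, 0.20 and 0.05 log2, and the clone does not say which form it measures. BTG1, an inhibitor of proliferation, was higher by 0.08, 0.12 and 0.43 log2. SGK1, a kinase induced by steroids and stress, was lower by 0.91 log2 at 30 min and higher by 0.46 at 60 min, with its Block level falling from 7.50 to 6.49.

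**Figure D4:**
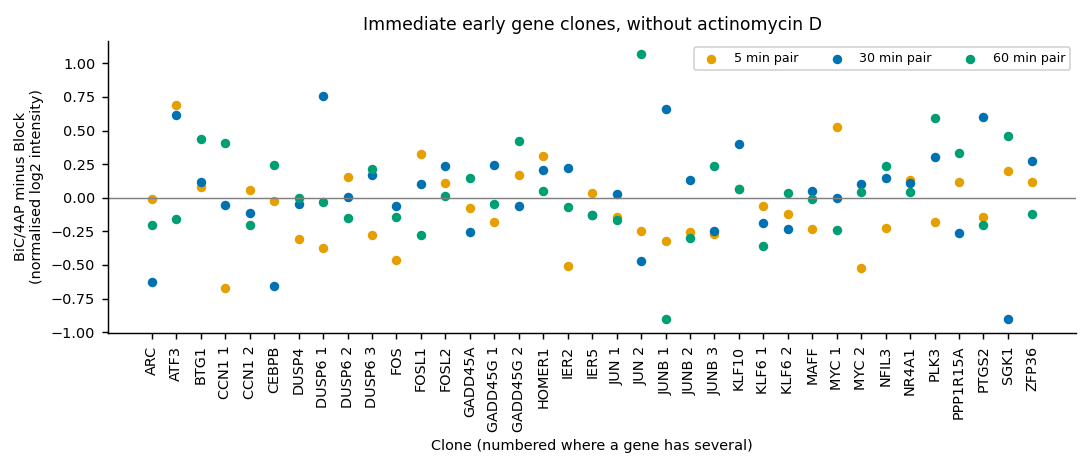
Difference between BiC/4AP and Block without actinomycin D (y axis, normalised log2 intensity) for the 37 immediate early gene clones above the level of 5 (x axis, numbered where a gene has several), with 1 point for each of the 5, 30 and 60 min pairs. Points lie on both sides of 0 at every time, and 9 clones are above 0 at both 30 and 60 min.

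Because CREB and the serum response factor act through known sites, the 250 bases before each gene's start in rat RefSeq (build GRCr8) were searched on both strands for the CRE (TGACGTCA, which reads the same on either strand) and for the CArG box. A match is a string of letters and no evidence of binding. Of 33469 promoters, 531 (1.59%) held the CRE and 501 (1.5%) the CArG box, and of the 4362 genes with a matched promoter among the named clones, 145 (3.32%) and 52 (1.19%) did. No promoter was listed for ARC, ATF3, DUSP4, FOS, JUN, KLF10 and MYC, which were therefore not searched. Of the 21 immediate early genes with a promoter listed, 3 held the CRE and 2 the CArG box. They are shown with the matching gene of the 24 for each motif, the motif in capitals and the strand of the gene, to set the sites against the levels.
IER2 (CRE, chr19:40399291-40399330, plus strand): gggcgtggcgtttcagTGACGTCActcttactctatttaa
MAFF (CRE, chr7:112792720-112792759, plus strand): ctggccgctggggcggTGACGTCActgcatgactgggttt
PPP1R15A (CRE, chr1:105139639-105139678, minus strand): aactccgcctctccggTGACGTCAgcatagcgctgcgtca
BUD23 (CRE, chr12:27266041-27266080, plus strand): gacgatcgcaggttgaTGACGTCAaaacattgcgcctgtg
KLF6 (CArG box, chr17:69458654-69458695, minus strand): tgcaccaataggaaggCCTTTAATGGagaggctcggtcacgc
ZFP36 (CArG box, chr1:92799115-92799156, minus strand): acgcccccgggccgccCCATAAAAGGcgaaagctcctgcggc
RSU1 (CArG box, chr17:81286055-81286096, minus strand): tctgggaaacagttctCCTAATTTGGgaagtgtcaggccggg

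Clones of genes with the CRE window did not stand out. IER2, an inducible nuclear protein, differed by -0.51, 0.22 and -0.07 log2 over the 3 times. MAFF, a small MAF factor, differed by -0.23, 0.05 and -0.01 log2. PPP1R15A, the stress-induced partner of protein phosphatase 1, differed by 0.12, -0.26 and 0.33 log2. The BUD23 clone among the 24 was lower at all times, while its other clone had mixed signs (0.15, -0.27 and 0.19). With the CArG box, ZFP36, which speeds the decay of AU-rich messages, differed by 0.12, 0.28 and -0.12 log2, and both KLF6 clones had negative effects (-0.11 and -0.20). The RSU1 clone among the 24 was higher by 0.44, 0.44 and 0.26 log2, while its 3 other clones had mixed signs. Over the 203 clones whose gene has the CRE, medians were -0.01, -0.03 and 0.08 log2 and 14.3% were higher in 3 of 3 pairs, beside -0.01, 0.03 and 0.02 log2 and 12.3% of the 5641 clones without it. Over the 77 clones with the CArG box the medians were 0.11, 0.00 and -0.02 log2 and 13.0% were higher in 3 of 3 pairs, beside -0.01, 0.03 and 0.02 log2 and 12.3% of the 5767 clones without it.

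The other gene groups moved little and rarely in 1 direction. Over 24 lists the medians ran from -0.23 to 0.26 log2 at 5 min, from -0.32 to 0.14 at 30 min and from -0.31 to 0.36 at 60 min. In no list did limma call a clone. The lists are described by counts and medians, with no test of a list. Their counts are to be read against all 7300 clones, of which 48.5%, 53.2% and 53.1% were higher at 5, 30 and 60 min.

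Cytoplasmic ribosomal proteins had the lowest median of any list at 30 min. Of 151 clones of 60 genes, 121 were lower with activity then, with a median of -0.32 log2, and 13 were past the threshold as lower, beside 4.24% of all spots. At 5 min 99 of the clones were higher (median 0.12) and at 60 min 80 were (median 0.02). Translation initiation and elongation factors were lower at 30 min in 57 of 81 clones (median -0.24). The brightest ribosomal clones, RPS16 and RPL14, differed by 0.23 and 0.52 log2 at 30 min and thus went against their list. With ActD, the ribosomal medians were -0.27, -0.05 and -0.06 log2 over the 3 times.

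Proteasome subunits were lower at 30 min (40 of 64 clones) and higher at 60 min (43 of 64, median 0.17 log2). PSMB10, a subunit of the immunoproteasome, was higher by 0.34, 0.23 and 0.27 log2. Glycolytic enzymes (39 clones, GAPDH included) had medians of -0.08, -0.16 and 0.05 log2, and PFKL, the liver form of phosphofructokinase, was higher by 0.45, 0.13 and 0.19. Heat shock proteins and chaperones had 30 of 46 clones higher at 60 min. Subunits of the respiratory chain (99 clones) stayed between -0.07 and 0.06 log2 in their medians, as did mRNA decay factors (31 clones) between -0.07 and 0.05.

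Of genes for synapses, those of synaptic vesicles and release were higher at 60 min in 20 of 28 clones (median 0.14 log2) and lower at 30 min in 18 (median -0.10). PCLO, a scaffold of the active zone, was higher by 0.17, 0.25 and 0.08 log2 (-0.03 at 30 min after quantile normalisation), and NAPA, which helps to take SNARE complexes apart, by 0.17, 0.02 and 0.22. The 5 clones of postsynaptic receptors and scaffolds had medians of -0.23, 0.11 and -0.31, the first of which was 0.03 with 1 clone per gene. In that list BAIAP2, an actin-binding scaffold of spines, was lower by 0.46 at 5 min, higher by 0.40 at 30 min and lower by 0.93 at 60 min. Axon and neurite growth genes had 15 of 24 clones lower at 5 min (median -0.22), and 1 of 24 was higher in 3 of 3 pairs.

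Voltage-gated channel genes are represented by 3 clones of 2 genes, KCNIP3, which modulates A-type potassium channels, and KCNH2, a potassium channel. KCNIP3 was higher by 0.68, 0.01 and 0.36 log2 at a mean level of 12.80 and KCNH2 by 0.26, 0.14 and 0.37 at 12.41, where quantile normalisation gave -0.08 at 5 min for KCNH2 and for the median of the list. The third clone, a dimmer one of KCNH2 at a level of 5.56, differed by -0.14, 0.14 and 0.31. RGS4, a brake on G protein signalling among the delayed activity-induced genes, was higher by 0.56, 0.01 and 0.29 log2, and HRAS by 0.41, 0.05 and 0.23. The effects were 0.35 (SE 0.17), 0.26 (SE 0.13), 0.29 (SE 0.17) and 0.23 (SE 0.12) log2.

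Several of the brightest clones were higher at 5 min, whatever their function. SUB1, a transcription coactivator, NDUFB6, a subunit of complex I, and TMSB10, which binds actin monomers, were higher by 0.78, 0.74 and 0.73 log2 at 5 min and lower by 0.15, 0.23 and 0.28 at 60 min. The 1460 clones with the highest mean level, above 8.12, had median differences of 0.18, 0.14 and -0.02 log2 over the 3 times, and the 1460 dimmest of -0.09, 0.03 and 0.03. After quantile normalisation the first of these was 0.05. A change of a bright clone is therefore to be read against 0.18 at 5 min and 0.14 at 30 min.

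Astrocyte markers were lower at 5 and 30 min (medians -0.20 and -0.18 log2) and higher at 60 min (0.25), in 12, 14 and 10 of 17 clones. Neuron markers had medians of -0.19, -0.10 and 0.12. The summed level of the astrocyte list lay between 12.04 and 12.26 in Block and between 11.73 and 12.29 with activity, and that of the neuron list between 11.89 and 11.99 and between 11.87 and 12.05. In pooled RNA, fewer cells of a type and less RNA per cell cannot be told apart. The astrocyte list itself holds MT1X, MT2A and MT3 and the neuron list holds TUBB3, so the marker lists share clones with those families. The part of these marker shifts in the metallothionein and tubulin values was not tested.

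**Figure D5:**
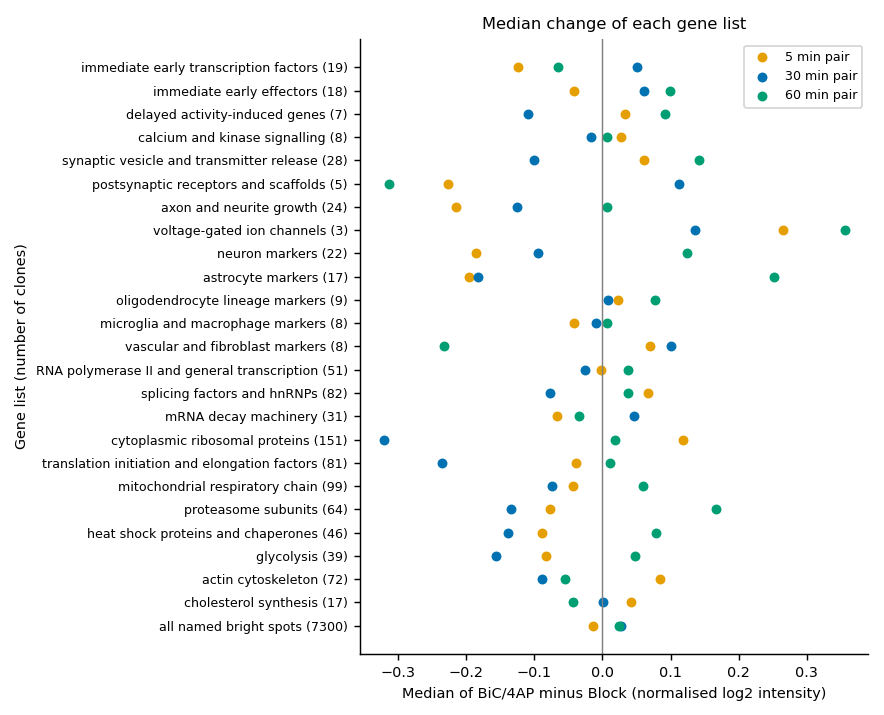
Median difference between BiC/4AP and Block without actinomycin D (x axis, normalised log2 intensity) for 24 gene lists and for all 7300 named clones (y axis, with the number of clones), at 5, 30 and 60 min. The ribosomal list lies at -0.32 at 30 min, and no other list with over 10 clones has a median further from 0 than 0.25 log2.

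Whether activity acted differently with and without transcription was tested as the difference of the activity effects in the same limma fit. It passed at 0 of 9600 spots (0.0%), and an unadjusted p under 0.05 was reached at 283 (2.95%). Of the 1417 clones with 1 direction in 3 of 3 pairs without ActD, 304 had that direction in 3 of 3 pairs with ActD, 166 the opposite one and 947 neither. Over all 7300 clones, 14.2% were higher and 13.6% lower in 3 of 3 pairs with ActD. Of the 24 leading clones, SERPINA5, RSU1, NOL6 and BNIP1 were also higher, and BUD23, FBXL20 and VCP also lower, in 3 of 3 pairs with ActD. An effect that was seen without ActD and not with it is not shown to differ between them by these data.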

How the data were processed

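Pooled RNA of 12 conditions was measured on nylon membranes, 1 array per condition, and the 6 arrays without ActD are the subject. The authors labelled the cDNA with 33P, scanned the membranes with a phosphorimager and deposited raw spot intensity, with no normalisation and no stated background subtraction. A second deposited table of the same intensity was identical in 115200 of 115200 values. Software versions are not given in the sources used here. The labels give the times as lengths of treatment, whereas the methods describe a brief stimulus, and the sources differ on pooling, so a time is the label's time. Other columns of per-sample values numbered 0.

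The probe annotation lists 8517 spots, 8496 with 1 symbol and 21 with several, which were left unnamed. In the join used, the mean of 143 ribosomal protein clones exceeded that of all spots by 2.02 log2, against 0.30 with the other index column of the table. Of the 5545 genes, 5184 match a rat RefSeq symbol or synonym.

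From the intensities, z-scores of log2 intensity were computed over all spots of an array and multiplied by the mean SD (2.15). The z-fold formula is not printed in the sources and was assumed. limma 3.58.1 (R 4.3.3) was fitted to 12 arrays with 6 blocks (time and ActD) and separate activity effects without and with ActD, leaving 4 residual degrees of freedom, with empirical Bayes moderation and Benjamini-Hochberg adjustment over 9600 spots. The fit was tested on simulated data. The number of arrays limits the precision.

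Named genes were the first 12 higher and 12 lower by p with 1 direction in 3 of 3 pairs and their other clones, the 5 largest z-score differences each way per time, the 4 brightest genes of each list and all immediate early genes. The members, lists and tests were chosen with earlier results of these data known. Alternatives were quantile normalisation, median centring, adding each array's 10th percentile, a level above 7, spots at intensity 10 left out, 1 clone per gene, the plain z-score difference, only named bright spots, the 6 arrays alone, leaving out each time, and a running median of 101 neighbouring spots, which was chosen after seeing the data, as were the 5 gene families.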

Additional observations from a re-analysis of the deposited data

Results flagged for a closer look

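Of 146 named clones checked, 5 had 1 direction in 3 of 3 pairs without ActD and the opposite direction in 3 of 3 pairs with ActD. Subtracting the effect with ActD from that without it gave 0.685 log2 for PFKM, -0.605 for PCLAF, -0.808 for ATP6V1D, -0.463 for ARC and 0.258 for BTG1. ATP6V1D differed by -0.34, -0.41 and -0.54 log2 without ActD and by 0.23, 0.48 and 0.43 with it. ARC differed by -0.01, -0.63 and -0.20 log2 without ActD and by 0.16, 0.16 and 0.23 with it. None of these differences passed limma's adjusted p over all spots, the lowest of which was 0.395. Over all 7300 clones, 166 (2.27%) had such opposite directions and 304 (4.16%) the same direction in 6 of 6 pairs.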

How the results depend on the processing

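No spot passed limma's adjusted p under any alternative, with the lowest adjusted p at 0.105 without the 60 min pair, 0.358 in the 6 arrays alone and 0.0794 for the difference by ActD after the running median was subtracted. The 24 leading clones kept their direction in all 9 alternative fits, and the effects of 6 moved by over 1.5 times. The fits without a time and to the 6 arrays alone could not turn a direction, as these clones were chosen for 1 direction in 3 of 3 pairs. Adding the 10th percentile gave -0.68 log2 for TMEM176B, -0.32 for TPGS2, -0.32 for PCLAF and -0.39 for FBXL20, quantile normalisation 0.21 for PITPNB, the running median -0.18 for ZMYM3 and -0.35 for TPGS2, and leaving out the 30 min pair -0.82 for TMEM176B. Directions were also kept by the leading clones of each time wherever retained, but these were picked as the largest differences. Their values were marked as changed for 28 and as the same for 2 after adding the 10th percentile. The numbers were 26 and 4 after quantile normalisation, 25 and 5 after the running median and 12 and 18 after median centring. Counts past the z-fold threshold (higher, lower) depended on the background. After adding the 10th percentile they were 464 and 604 at 5 min, 328 and 515 at 30 min and 491 and 486 at 60 min. After quantile normalisation they were 52 and 118 at 5 min and 90 and 82 at 60 min. After the running median, 11 were lower at 5 min. Above a level of 7 (2814 clones) they were 4 and 22, 8 and 78, and 58 and 81, and there 466 clones were higher and 119 lower in 3 of 3 pairs. By the plain z-score difference they were 0 and 0, 0 and 1, and 2 and 1. With 1 clone per gene the medians that turned were postsynaptic genes at 5 min (0.032 log2), alpha-tubulins at 30 min (0.15), and FTL at 5, 30 and 60 min (0.42, 0.18 and -0.30, its brightest clone), and after quantile normalisation ion channels at 5 min (-0.076). Arrays were paired by time throughout, and a further pairing by replicate number could not be made with 1 array per condition. Median raw intensities per array were 52.6 to 137, and the weak signal of clones below them limits what their differences can show.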
